A study of Mus musculus with 8 samples.

Results

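The genes described here act in mitosis: CDK1 and its cyclins and activating phosphatases, the other mitotic kinases, the spindle assembly checkpoint, kinetochore and centromere proteins, spindle motors, cytokinesis factors, chromosome proteins and the transcription factor FOXM1. They were chosen by name, as a list of 40 genes. For each, the Affymetrix probe set with exactly 1 gene symbol and the highest mean signal was taken. This gave values for 39 of the 40 genes, out of 19937 genes measured; Ccnb1 was not analysed here. The RNA was from B-lymphoid mouse cells, strain label SW129/C57BL/6J, and each of 8 samples was hybridized to its own MoGene 1.0 ST array. The 4 knockout samples are labelled c-jun knock out and the 4 others wild type. Replicate numbers used here follow the order of the deposited samples within each genotype and are not from the labels. Replicates 1 and 2 of each genotype carry RO titles and replicates 3 and 4 carry D or F titles. The labels do not say what the title series stand for. The series title places the cells in work on lymphoid leukemia driven by the BCR-ABL kinase, on c-JUN and on DNA methylation at the 5′ end of the Cdk6 gene. No label gives a treatment, age or Cre driver, or states whether the cells carried BCR-ABL or came from separate cultures or animals. The p-values below rest on how these samples scatter, and part of that scatter may be technical. In such bulk RNA, fewer cells in mitosis and less mitotic RNA per cell cannot be told apart.

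CDK6 pairs with D-type cyclins early in the cell cycle and phosphorylates the retinoblastoma protein, which frees E2F factors to switch on genes for DNA synthesis. Mitotic genes come on later, when the MuvB complex joins B-MYB and FOXM1 at their promoters, and their transcripts peak as cells divide. Their level in a population is widely read as a measure of proliferation. The comparison asked whether samples with less Cdk6 also had less of these transcripts.

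The promoters of the genes are shown first because such genes are known to share 2 short elements, the cell-cycle genes homology region (CHR) and the CCAAT box. In RefSeq promoter windows of 300 bases, 250 before and 50 after each gene's start on GRCm38.p6, 33 of the 40 genes had an entry. Aurkb, Ccna2, Cdc25c, Foxm1, Incenp, Kif20a and Tpx2 had none. The CHR was searched as TTTGAA or TTCGAA and the CCAAT box as CCAAT, each on both strands, and matches to the 2 were counted without regard to each other. A CHR was present in 25 of the 33 genes (75.8%), against 21.7% of 27025 genes with a promoter in the same tables. CCAAT was present in 25 of the 33 (75.8%), against 41.1% of all genes. Both were present in 22 (66.7%), against 8.61% of all genes. The 110 bases before the start are printed for the kinase gene Cdk1, the anaphase-promoting complex genes Cdc20 and Ube2c, the spindle motor Kif11 and the topoisomerase Top2a, which hold both elements, and for the securin gene Pttg1, which varied most between the title series. Capitals mark the matches on either strand.
Cdk1, chr10:69352913-69353022, minus strand: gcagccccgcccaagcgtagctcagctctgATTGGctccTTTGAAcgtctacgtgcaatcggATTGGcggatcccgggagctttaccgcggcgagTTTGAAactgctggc
Cdc20, chr4:118437344-118437453, minus strand: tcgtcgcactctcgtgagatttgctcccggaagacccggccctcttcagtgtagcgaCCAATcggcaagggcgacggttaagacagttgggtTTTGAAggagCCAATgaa
Ube2c, chr2:164769819-164769928, plus strand: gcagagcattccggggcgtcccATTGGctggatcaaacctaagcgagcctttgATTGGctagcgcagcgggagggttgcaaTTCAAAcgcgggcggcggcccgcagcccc
Kif11, chr19:37376272-37376381, plus strand: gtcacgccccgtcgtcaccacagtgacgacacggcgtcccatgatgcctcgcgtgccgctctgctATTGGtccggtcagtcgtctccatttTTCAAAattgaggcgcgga
Top2a, chr11:99024190-99024299, minus strand: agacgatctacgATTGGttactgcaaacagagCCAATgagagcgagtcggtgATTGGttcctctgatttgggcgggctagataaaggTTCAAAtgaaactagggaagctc
Pttg1, chr11:43425982-43426091, minus strand: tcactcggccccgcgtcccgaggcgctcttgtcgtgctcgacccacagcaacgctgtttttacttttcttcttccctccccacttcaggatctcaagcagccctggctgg
In Cdk1 both elements occur 2 times in this stretch, and in Top2a the CCAAT box occurs 3 times. Neither element was found in the whole window of Pttg1. A match describes the letters only.

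All values are log2 signals as the authors deposited them, so a difference of 1 is a 2-fold difference. The targeted gene, Jun, was read at 6.99, 6.46, 7.02 and 6.97 on the 4 knockout arrays and at 8.82, 8.84, 10.55 and 8.77 on the wild-type arrays. The knockouts lay below all wild types, with a difference of -2.38 or 5.22-fold (2-sided exact permutation p = 0.0286, the smallest that 4 arrays against 4 allow; limma adjusted p = 0.106). The labels do not say which part of Jun was deleted. Cdk6 was read at 9.69, 8.66, 10.11 and 6.79 in the knockouts and at 11.11, 11.002, 11.50 and 11.58 in the wild types. Its knockouts also lay below all wild types, with a difference of -2.48 ± 0.56 (SE) or 5.59-fold (exact permutation p = 0.0286; limma adjusted p = 0.878). Knockout replicate 4 had by far the least Cdk6. Of 17 B-lymphoid markers measured, 13 lay above the array median on all 8 arrays, among them Cd79a at 13.02 to 13.30, Pax5 at 11.04 to 11.76 and Igll1 at 13.82 to 14.21. Ms4a1, a marker of mature B cells, stayed below it at 5.57 to 6.07. The recombination genes Rag1 (6.17 to 10.43), Rag2 (5.69 to 9.49) and Dntt (6.81 to 10.22) varied widely and fell below it on some arrays. Array medians over all probe sets ran from 6.93 in knockout replicate 2 to 7.41 and 7.42 in wild-type replicates 1 and 3.

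The mitotic genes were strongly expressed in both genotypes, and no difference between the genotypes passed the test. Signals of the 39 genes ran from 8.68 for Cenpe to 13.03 for Ccna2, and all 39 were among the brighter 9968 genes. None of the 39 passed an adjusted p of 0.05 in the limma fit with genotype and title series (adjusted p 0.878 to 0.992). That fit called 0.00502% of all genes, which is 1 gene. Only Pttg1 was lower at an unadjusted p under 0.05, against 1.72% of all genes, and 0 were higher, against 0.537%. After quantile normalization or centring on array medians 0 were lower at that level, against 2.21% and 1.44% of all genes, and 0 were higher, against 1.18% and 1.79%. In no mitotic gene did all 4 knockouts lie below all 4 wild types, against 1.03% of all genes, or above them, against 0.266%.

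The direction was mixed. As deposited, 18 of the 39 were lower in the knockouts and 21 higher, while 72.0% of all genes were lower. The median knockout minus wild type difference was 0.011 for the mitotic genes and -0.11 for all genes, or -0.028 for the brighter 9968 genes. After quantile normalization 20 of the 39 were lower, against 56.5% of all genes, and the medians were -0.019 and -0.024. With each array centred on its median, 5 of the 39 were lower, against 39.7%, and the medians were 0.16 and 0.040. Across the 3 scalings 19 genes were higher each time, 5 were lower each time and 15 changed sign.

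The intervals bound what these arrays could miss. The 95% interval of each of the 39 differences excluded a fall of 2-fold or more in the knockouts, as did 96.6% of all genes, so that this count is near the background. A fall of 1.5-fold or more was excluded for 36 of the 39, against 60.1% of all genes; the exceptions were Cdc25b, Nek2 and Pttg1. The widest bound toward a fall was 1.82-fold, for Pttg1, and the widest toward a rise was 1.99-fold, for Anln, so that all 39 also excluded a 2-fold rise, as did 98.1% of all genes. These bounds hold for the deposited scaling. After quantile normalization all 39 excluded a 2-fold fall (96.9% of all genes), 36 a 1.5-fold fall (87.7%) and 38 a 2-fold rise (97.0%). After centring the counts were 39 (97.5%), 35 (91.5%) and 30 (93.3%).

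**Figure D1:**
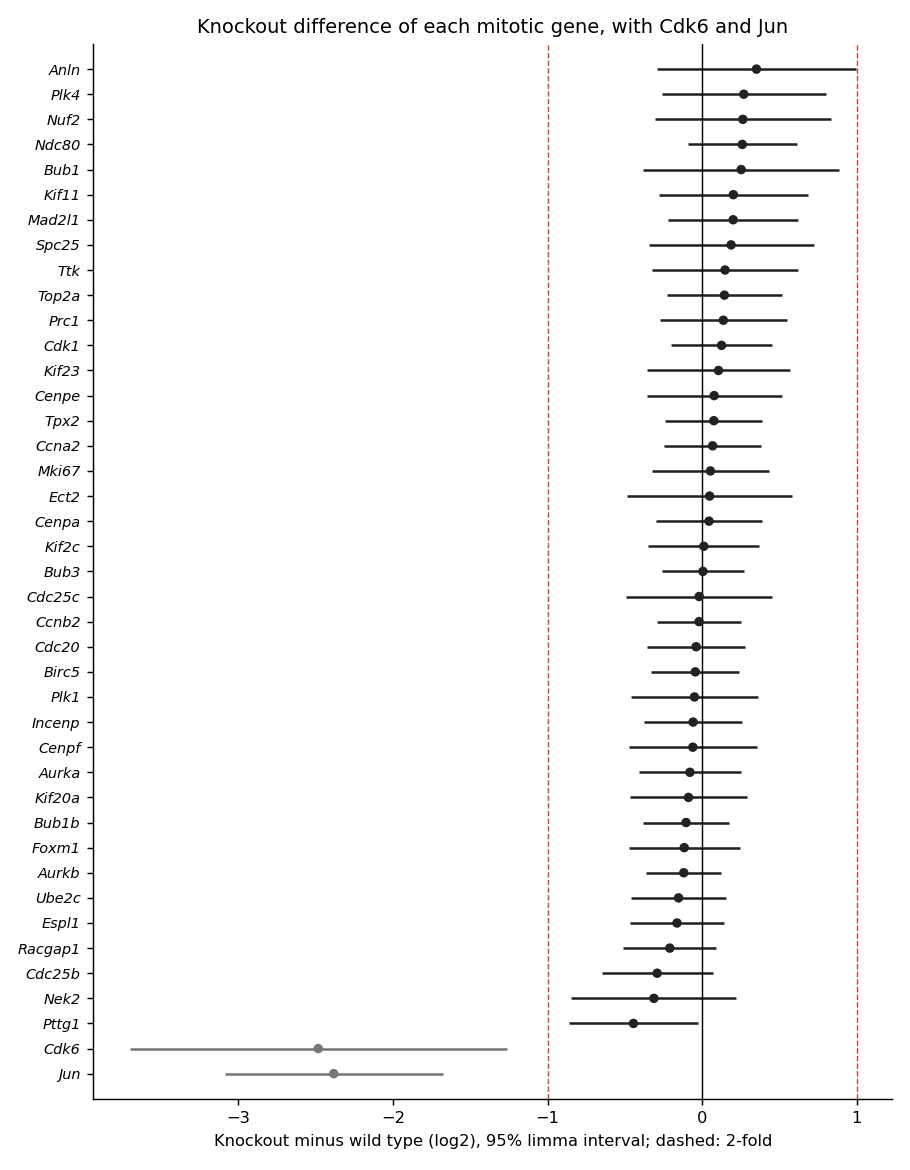
Knockout minus wild type difference (log2) of each of the 39 mitotic genes from the limma fit, with its 95% interval, in order of the difference; Cdk6 and Jun are added in grey and dashed lines mark 2-fold. The mitotic points lie between -0.44 (Pttg1) and 0.35 (Anln), and no mitotic interval reaches a 2-fold fall.

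Among the genes that drive entry into mitosis, the kinase gene Cdk1 was read at 12.62, 12.88, 12.79 and 12.25 in the knockouts and 12.38, 12.76, 12.38 and 12.52 in the wild types. The difference was 0.13 ± 0.15 (SE), and the genotypes overlapped. Its partner cyclin A2, Ccna2, stood at 12.95, 13.03, 12.84 and 12.52 against 12.62, 12.90, 12.58 and 12.97, a difference of 0.067 ± 0.142. The lowest values of both genes came from knockout replicate 4 and wild-type replicates 1 and 3. Ccnb2, a B-type mitotic cyclin, differed by -0.020 ± 0.125. Of the phosphatases that activate CDK1, Cdc25b was read at 10.89, 10.36, 10.39 and 10.05 against 10.96, 10.66, 10.54 and 10.70. Its difference, -0.29 ± 0.16, was larger than the spread within the groups (pooled SD) but did not pass the test (limma adjusted p = 0.878). Cdc25c stood at 9.93, 9.55, 9.29 and 8.97 against 9.12, 9.54, 9.79 and 9.38, so that the knockouts held both the highest and the lowest array. As deposited, all 5 genes of this group were lowest on knockout replicate 4.

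The mitotic kinases beside CDK1 gave small differences of both signs. Polo-like kinase 1, Plk1, which acts from centrosome maturation to cytokinesis, was read at 12.30, 12.42, 12.19 and 11.74 in the knockouts and 11.84, 12.41, 12.06 and 12.54 in the wild types, a difference of -0.050 ± 0.188. Aurora A, Aurka, which works at the spindle poles, differed by -0.079 ± 0.149. Aurora B, Aurkb, the kinase of the chromosomal passenger complex, hardly varied, between 12.30 and 12.57, and differed by -0.12 ± 0.11. Plk4, which starts centriole duplication, stood at 11.09, 11.13, 10.98 and 10.61 against 10.05, 10.97, 10.47 and 11.24. The difference of 0.27 ± 0.24 went with the low values of wild-type replicates 1 and 3. The centrosomal kinase gene Nek2 was read at 10.70, 10.53, 10.56 and 10.82 against 11.85, 10.73, 10.42 and 10.87. Here 1 array, wild-type replicate 1, stood above all others, and the difference of -0.31 ± 0.24 became -0.016 without it.

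The spindle assembly checkpoint holds back anaphase until every chromosome is attached. Bub1, a checkpoint kinase at kinetochores, was read at 11.27, 11.47, 11.27 and 10.79 in the knockouts and 10.03, 11.32, 10.86 and 11.58 in the wild types. The difference was 0.25 ± 0.29 and changed to -0.095 without wild-type replicate 1. Mad2l1, which binds and inhibits CDC20, stood at 11.75, 11.74, 11.65 and 11.19 against 10.998, 11.79, 11.16 and 11.58, a difference of 0.20 ± 0.19. The checkpoint kinase gene Ttk differed by 0.15 ± 0.22. Bub1b (BUBR1) differed by -0.10 ± 0.13, and Bub3, which holds BUB1 and BUBR1 at kinetochores, by 0.0047 ± 0.120. Bub3 was flat, between 11.80 and 12.05. The low arrays of Bub1, Mad2l1 and Ttk were again wild-type replicates 1 and 3 and knockout replicate 4.

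Genes acting at the metaphase to anaphase transition were all 4 lower on average in the knockouts as deposited, against 72.0% of all genes. None passed the adjusted test, and Cdc20 (0.11) and Ube2c (0.00033) were higher once arrays were centred. Cdc20, an activator of the anaphase-promoting complex, was read at 11.18, 11.20, 11.41 and 10.93 against 11.28, 11.38, 10.99 and 11.23, a difference of -0.039 ± 0.144. Ube2c, the ubiquitin-conjugating enzyme of that complex, stood at 10.89, 11.03, 10.64 and 10.57 against 10.82, 10.91, 11.01 and 11.003, a difference of -0.15 ± 0.14. Separase, Espl1, which cuts cohesin, differed by -0.16 ± 0.14. Pttg1 encodes securin, the inhibitor of separase that the complex destroys, and its values separated by title series. On RO arrays it was read at 10.85 and 10.46 in the knockouts and 11.33 and 11.68 in the wild types. On D and F arrays it was read at 9.71 and 9.70 in the knockouts and 9.64 and 9.85 in the wild types. The genotype difference of -0.44 ± 0.19 thus came from the RO arrays, and it missed the adjusted threshold (limma adjusted p = 0.878).

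**Figure D2:**
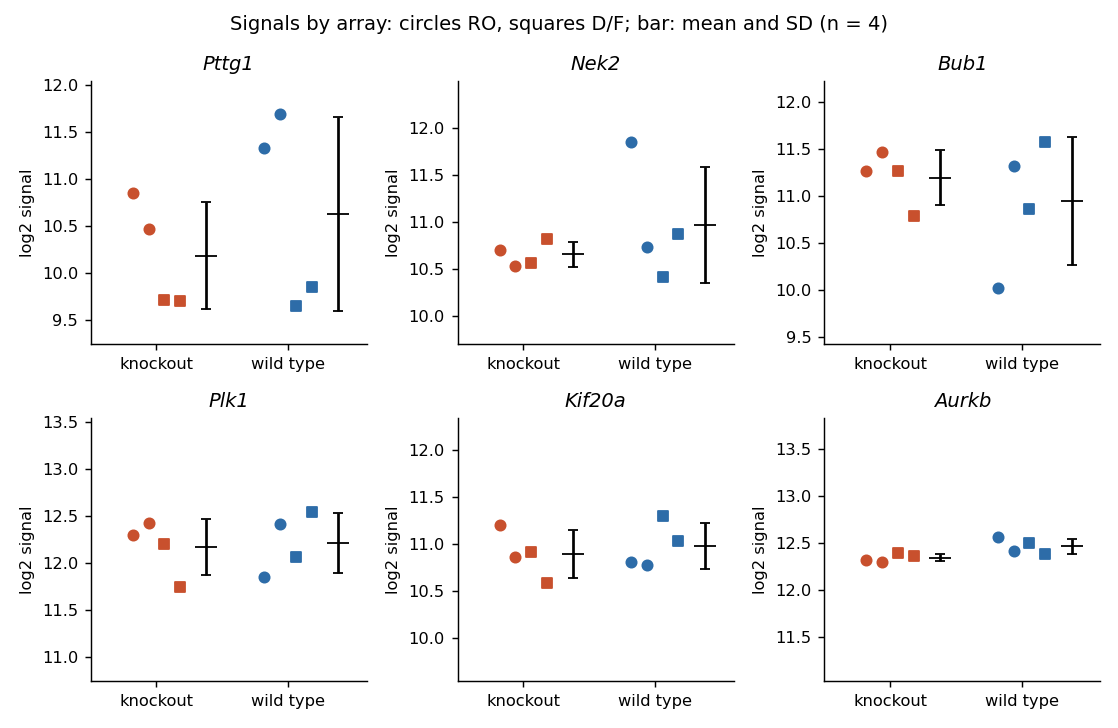
Log2 signal of 6 genes on each of the 8 arrays, by genotype (columns of points) and title series (marker shape), with each genotype's mean and SD (n = 4) beside them. Genotypes overlap in every mitotic gene shown, and in Pttg1 all RO arrays lie above all D and F arrays.

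Kinetochore and centromere genes were higher on average in the knockouts in 5 of 6 cases as deposited and in 6 of 6 after centring, and none passed. Of all genes 72.0% were lower as deposited and 39.7% after centring. Nuf2 and Spc25, subunits of the NDC80 complex that grips microtubules, were lowest on wild-type replicate 1. Nuf2 was read at 9.995, 10.56, 10.41 and 9.91 in the knockouts and 9.26, 10.18, 9.79 and 10.58 in the wild types, a difference of 0.26 ± 0.26. Spc25 differed by 0.19 ± 0.24. Ndc80 itself stood at 9.90, 10.10, 9.58 and 9.50 against 9.31, 9.71, 9.47 and 9.55. Its difference of 0.26 ± 0.16 exceeded the pooled SD but not the adjusted threshold. Cenpa, the histone variant of the centromere, was read at 12.59, 12.31, 12.01 and 11.89 against 12.20, 12.09, 12.41 and 11.92, a difference of 0.044 ± 0.158. The kinetochore motor gene Cenpe differed by 0.077 ± 0.199 and Cenpf by -0.061 ± 0.189. Of the chromosomal passenger subunits that target Aurora B, survivin (Birc5) differed by -0.044 ± 0.130 and Incenp by -0.059 ± 0.144.

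Spindle motor and cytokinesis genes gave 7 higher and 2 lower means in the knockouts as deposited, while 72.0% of all genes were lower, and none passed. Kif11, the motor that pushes the poles apart, was read at 11.60, 11.91, 11.79 and 11.38 in the knockouts and 10.97, 11.72, 11.20 and 11.98 in the wild types. The difference was 0.20 ± 0.22, with the genotypes interleaved. The microtubule depolymerase Kif2c differed by 0.011 ± 0.164 and the spindle assembly factor Tpx2 by 0.075 ± 0.143. Anln, which encodes the cleavage-furrow protein anillin, stood at 10.68, 10.72, 10.48 and 10.54 against 9.90, 10.71, 9.39 and 11.01. Its difference of 0.35 ± 0.29 was the highest of the 39, while its 4 wild types spanned both the lowest and the highest array. Among the central spindle genes, Prc1, a microtubule bundler, differed by 0.14 ± 0.19, the motor genes Kif23 by 0.11 ± 0.21 and Kif20a by -0.089 ± 0.173, Ect2, which activates RhoA, by 0.048 ± 0.243, and its partner Racgap1 by -0.21 ± 0.14.

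Of the chromosome proteins, Top2a, which untangles sister DNA, was read at 11.64, 12.21, 11.94 and 11.75 against 11.64, 12.03, 11.40 and 11.89, a difference of 0.14 ± 0.17. Mki67, the Ki-67 proliferation marker, stood at 11.71, 12.22, 12.003 and 11.98 against 11.81, 12.13, 11.55 and 12.21, a difference of 0.053 ± 0.172. For both, knockout replicate 4 was in the middle of the knockouts. Foxm1 was read at 10.61, 10.67, 10.12 and 10.11 against 10.32, 10.63, 10.33 and 10.69, a difference of -0.12 ± 0.16.

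The spread between arrays of 1 genotype was wider than the difference between genotypes. The median gene spanned 0.72 over the 8 arrays, had an SD of 0.23 in the knockouts and 0.25 in the wild types (n = 4 each), and differed by 0.12 in either direction between the genotype means. The difference exceeded the pooled SD only in Cdc25b, Aurkb, Espl1 and Ndc80. This spread was shared by most of the genes: the lowest of the 8 arrays was knockout replicate 4 in 17 genes, wild-type replicate 1 in 11 and wild-type replicate 3 in 8. Those arrays were the lowest for 4.71%, 12.5% and 5.70% of all genes. With arrays centred on their medians the counts turned to 8, 15 and 16, against 8.53%, 23.2% and 18.3% of all genes. The highest was knockout replicate 2 in 14 genes and wild-type replicate 4 in 9, against 7.70% and 7.40% of all genes. As deposited, the roles divided between the low arrays. In the cyclin and CDC25 group 5 of 5 genes were lowest on knockout replicate 4. Lowest on wild-type replicate 1 were 3 of 5 checkpoint genes and 3 of 6 kinetochore genes. Counts by role were not made with centred arrays. Cdk1 on knockout replicate 4 (12.25) and wild-type replicate 1 (12.38) differed by less than their array medians, 7.22 and 7.41, so centring reverses their order.

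**Figure D3:**
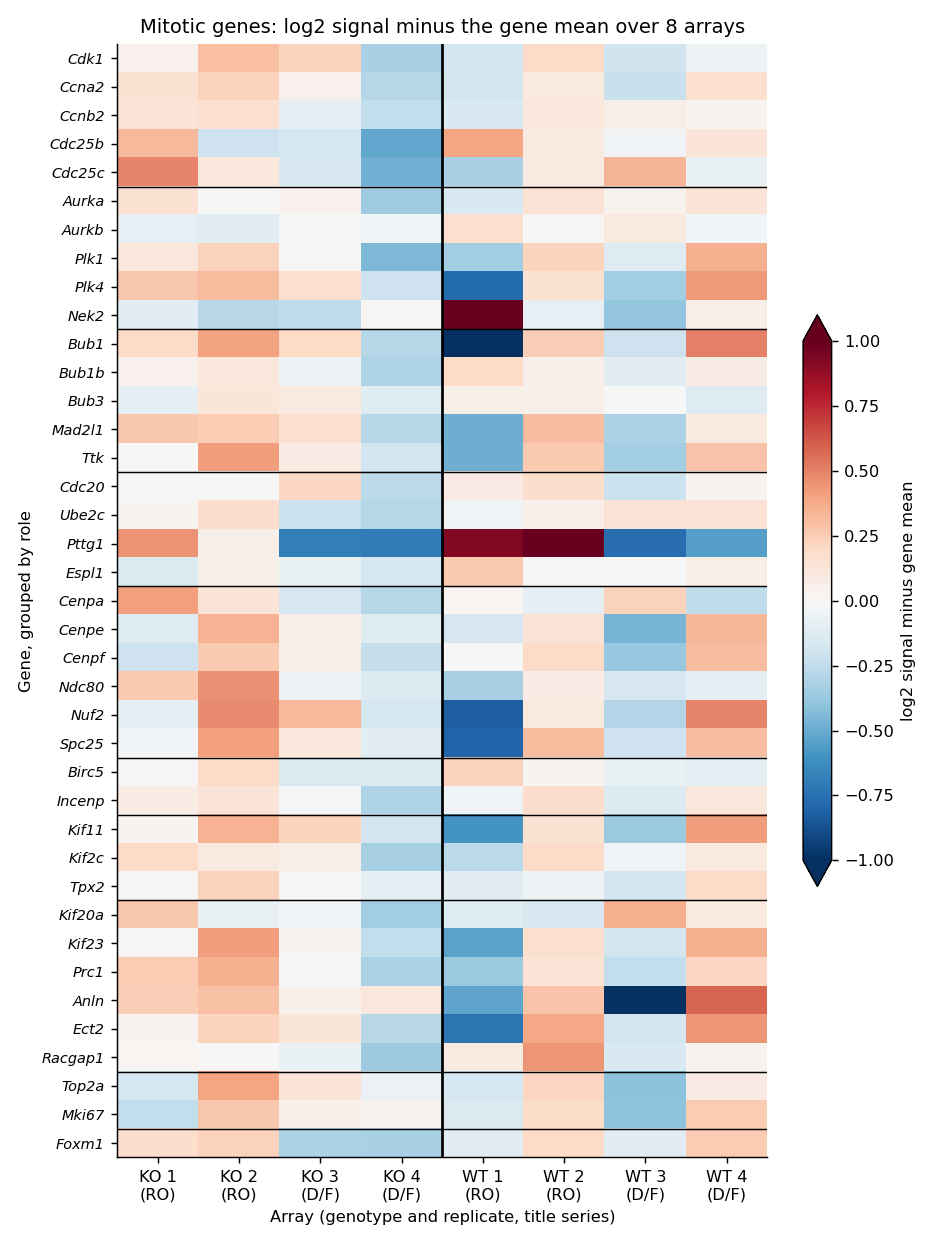
Log2 signal of each of the 39 mitotic genes on each array minus that gene's mean over the 8 arrays, with genes grouped by role and arrays by genotype and title series. Knockout replicate 4 and wild-type replicates 1 and 3 are the low arrays, holding the lowest value of 36 of the 39 genes.

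Each gene was set against the mean of the other 38 across the 8 arrays, which share RNA, array and scaling. The median Pearson correlation was 0.74, and 29 of the 39 exceeded 0.5, against 11.1% of the other genes on the array. That share covers dim and bright genes, and none was computed for genes as bright as the 39. Ccna2 (0.98), Prc1 (0.95), Plk1 (0.94) and Incenp (0.93) followed the mean most closely. Aurkb (-0.59), Nek2 (-0.38) and Espl1 (0.00017) did not follow it. After quantile normalization the median was 0.64 and 26 exceeded 0.5, with no share of the other genes computed.

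Set against Cdk6, the mean mitotic level had no single order. The mean was taken over the 39 genes after subtracting each gene's mean over the arrays. It was -0.24 in knockout replicate 4, which had the lowest Cdk6 (6.79), and 0.19 in knockout replicate 2, which had the next lowest (8.66). Knockout replicates 1 and 3, with Cdk6 at 9.69 and 10.11, stood at 0.085 and -0.0026. Among the wild types, whose Cdk6 lay between 11.002 and 11.58, replicates 2 and 4 stood at 0.17 and 0.15 and replicates 1 and 3 at -0.17 and -0.18. As deposited, the array with least Cdk6 thus had the lowest mean, the array with the next least the highest, and the wild types fell on both sides. Because Cdk6 itself split the arrays by genotype, into groups of 4, no correlation was computed. By genotype the mean was 0.0083 ± 0.185 in the knockouts and -0.0083 ± 0.192 in the wild types (SD, n = 4). After quantile normalization knockout replicate 4 remained lowest, while wild-type replicate 2 stood above knockout replicate 2. The values were -0.23 in knockout replicate 4, 0.15 in knockout replicate 2, and -0.13, 0.17, -0.14 and 0.12 in wild-type replicates 1 to 4. With centred arrays knockout replicate 4 was no longer lowest: it stood at -0.29, above wild-type replicates 1 (-0.41) and 3 (-0.42), and knockout replicate 2 was highest at 0.43.

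**Figure D4:**
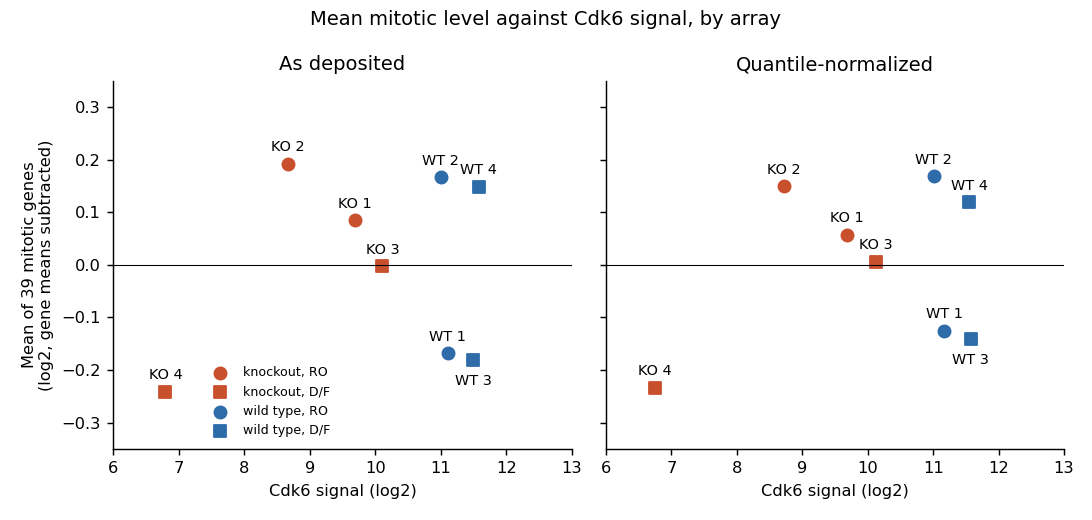
Mean of the 39 mitotic genes (log2, gene means subtracted) against the log2 Cdk6 signal of the same array, as deposited (left) and after quantile normalization (right). Colour gives genotype and marker shape the title series; knockout replicate 4 is lowest on both axes, and knockout replicate 2, with the next lowest Cdk6, stands with wild-type replicates 2 and 4 at the top.

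Knockout replicate 4 was the lowest of the 4 knockouts for 32 of the 39 genes, against 15.0% of all genes, and for 33 after quantile normalization, against 24.1%. The exceptions as deposited were Aurkb, Nek2, Cenpe, Birc5, Anln, Top2a and Mki67. Its mean mitotic level was 0.28 below that of the other 7 arrays together, and 0.27 below after quantile normalization. Its array median, 7.22, equalled that of knockout replicate 3, whose mean mitotic level was near 0. The low wild-type replicates 1 and 3 had the highest array medians, 7.41 and 7.42. Knockout replicates 1 and 2 and wild-type replicate 4, with means above 0, had the lowest, 7.01, 6.93 and 6.99. The part of array scaling in these levels was not tested. With knockout replicate 4 left out, 11 of the 39 genes were lower in the knockouts, against 72.9% of all genes, and the median difference was 0.12. With wild-type replicates 1 and 3 left out together, a choice made after seeing the values, 35 of the 39 were lower, against 47.4% of all genes, and the median was -0.16, against 0.0095 for all genes. Bub3, Cenpa, Ndc80 and Birc5 were then the exceptions, and still 0 of the 39 passed the adjusted test, against 0.0201% of all genes. At an unadjusted p under 0.05 there were 3, against 2.23% of all genes. The sign of the median difference thus changed with the arrays included. The arrays left out had the lowest mean mitotic level of their genotype, so leaving them out raised that genotype's mean by construction. These counts show the dependence on the arrays and are no test of the genotype.

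The title series gave 1 gene that stood out. Pttg1 was higher on the 4 RO arrays than on the 4 D and F arrays by 1.36 ± 0.19 (SE), or 2.56-fold, and missed the adjusted threshold (limma adjusted p = 0.062); it passed without knockout replicate 2 (0.0075) or without knockout replicate 4 (0.0497). All RO arrays lay above all D and F arrays for Pttg1 and for Birc5, against 0.983% of all genes. In all, 31 of the 39 were higher on RO arrays, against 36.2% of all genes, and 0 passed, against 0.0201%. At an unadjusted p under 0.05 there was 1, Pttg1, against 3.12%. The differences of the other 38 genes ran from -0.17 to 0.30, and the median was 0.12, against -0.051 for all genes.

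Within the title series the genotype differences pointed different ways. On the RO arrays (2 against 2) 12 of the 39 genes were lower in the knockouts, against 73.5% of all genes, with a median of 0.18 against -0.25. On the D and F arrays (2 against 2) 29 of the 39 were lower, against 47.6%, with a median of -0.062 against 0.0097. After quantile normalization the medians of the 39 were 0.12 on the RO arrays and -0.11 on the D and F arrays. The other values by series given here are as deposited. The shares and medians of all genes cover dim and bright genes, and none was computed by series for genes as bright as the 39. In 21 genes the knockouts were higher on the RO arrays and lower on the D and F arrays, and in 4 genes the reverse. The knockouts were lower in both series in 8 genes (Cdc25b, Aurkb, Bub1b, Pttg1, Espl1, Cenpf, Birc5 and Racgap1) and higher in both in 6 (Cdk1, Mad2l1, Cenpe, Ndc80, Anln and Top2a). Both RO knockouts lay above both RO wild types in 9 genes, against 8.71% of all genes, and below them in 5, against 45.5%. On the D and F arrays both knockouts lay below both wild types in 8 genes, against 10.5%, and above them in 0, against 9.57%. Within a series, limma called 0 of the 39 on the RO arrays, against 0.161% of all genes, and 0 on the D and F arrays, against 0.396%. The test of the difference between the series called 0 of the 39, against 0.0301% of all genes. At an unadjusted p under 0.05 it gave 3, Pttg1, Cdc25c and Kif20a, against 5.38% of all genes (limma adjusted p = 0.716).

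**Figure D5:**
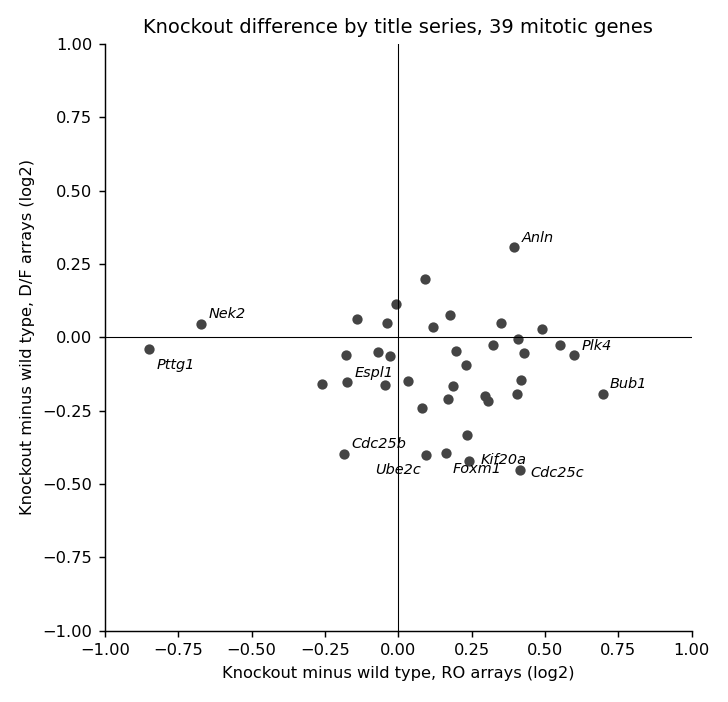
Knockout minus wild type difference (log2) of each of the 39 mitotic genes on the RO arrays (x axis, 2 against 2) and on the D and F arrays (y axis, 2 against 2). In 21 genes the difference is above 0 on the RO arrays and below 0 on the D and F arrays.

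Other genes of the same machinery were read from lists of known function, and 0 of their genes passed the adjusted test in either direction. Among 36 other kinetochore and centromere genes 9 were lower in the knockouts, with a median difference of 0.10. Mad1l1, the checkpoint partner of MAD2, stood at -0.26 and Cenpk at 0.42, neither past the test. Of 38 other spindle and cytokinesis genes 15 were lower, with a median of 0.022, from Psrc1 at -0.93 to Tacc3 at 0.23. Of 17 condensin and cohesin genes, which fold and hold chromosomes, 3 were lower (median 0.15). Ncapd2 stood at -0.11 and Pds5a at 0.25.

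Of 15 anaphase-promoting complex genes 6 were lower (median 0.074), with Fzr1 at -0.21 and Anapc5 at 0.23. Of 15 regulators of mitotic entry 5 were lower (median 0.085), with Plk3 at -0.29 and Arpp19 at 0.37. Of 20 genes of the MuvB, B-Myb, E2F and RB families 8 were lower (median 0.055), with E2f6 at -0.90 and Tfdp2 at 0.42. Of 14 genes for the cyclins, kinases and inhibitors of the phase before DNA synthesis 8 were lower (median -0.029); Cdk6 is one of them, and Ccne2, an E-type cyclin, stood at 0.54. Of 39 DNA replication genes 11 were lower (median 0.067), with Pole2, a DNA polymerase subunit, at -0.55 and Orc6, an origin recognition subunit, at 0.42. As deposited, the medians of 7 of these 8 lists lay above 0 over all arrays, beside -0.11 for all genes and -0.028 for the brighter 9968 genes. Of all genes 72.0% were lower. After quantile normalization 7 of the 8 medians also lay above 0, beside -0.024 for all genes. On the D and F arrays alone 7 of the 8 medians lay below 0, and without wild-type replicates 1 and 3 there were 5 below 0. List means by array were taken as deposited after subtracting gene means, and knockout replicate 4 was lowest in none of these lists. It stood at -0.19 for other spindle and cytokinesis genes, -0.087 for condensin and cohesin genes and -0.072 for DNA replication genes. Wild-type replicate 1 stood at -0.25, -0.33 and -0.22.

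Markers of other cell types varied between arrays. Below the array median on all 8 arrays were 8 of 14 myeloid, 7 of 13 T and NK, 4 of 9 erythroid and megakaryocyte, and 10 of 14 stromal or endothelial markers. Lyz2, a myeloid lysozyme, ran from 7.44 in knockout replicate 4 to 10.64 in knockout replicate 2. These arrays also had the lowest and the highest mean mitotic level as deposited. Lyz2 was 10.63 in knockout replicate 1 and 9.93 in wild-type replicate 3, where the mean mitotic level was 0.085 and -0.18. Fcgr3, an Fc receptor of myeloid and some lymphoid cells, ran from 6.995 to 10.09. Klrb1c, from the T and NK list, ran from 5.73 to 10.54. Cd2 at 11.39 to 12.07 and Pecam1 at 9.59 to 10.46 were high throughout. Bulk RNA does not show which cells made these transcripts. The mean over each list ran from 6.71 to 6.94 in the knockouts and 6.61 to 7.33 in the wild types for myeloid markers, and from 6.72 to 7.27 and 6.84 to 7.66 for T and NK markers. For erythroid and megakaryocyte markers it ran from 6.51 to 6.96 and 6.69 to 7.11, and for stromal or endothelial markers from 6.56 to 6.88 and 6.58 to 7.16. Wild-type replicate 3, one of the low mitotic arrays, had the highest mean of the myeloid and the T and NK list. Their part in the mitotic levels was not tested.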

How the data were processed

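RNA from 8 samples was labelled from a 200 ng amount and hybridized to 1 array each, per the labels' protocols. The authors deposited log2 values for 34760 probe sets; the log base was read from the values, whose linear mean with 2% trimmed was 500 on every array. MAS5 is named in the submitters' processing notes, although it was built on mismatch probes and this array type has none. Its version, the probe summarization and the genome build were not given. The scaling fixes each array's mean and not its distribution, so medians differed between arrays, and precision is limited by the number of arrays.

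By the platform annotation, 21640 probe sets had 1 gene symbol, 1321 several and 11799 none. The highest-mean single-symbol probe set gave 19937 genes, 954 of which had more than 1 probe set. Values were fitted with limma 3.58.1 in R 4.3.3 (eBayes with trend) with genotype and title series as terms, and p-values were adjusted by Benjamini-Hochberg over all genes at 0.05. The scripts were tested on simulated data with known changes. Alternatives were quantile normalization, median centring, filters on dim genes, other probe set rules, other eBayes settings, no series term or a random block, array weights, each title series alone and each array left out; pseudocounts do not apply to log2 values. The 40 genes and all other lists were chosen by name with earlier results of these data known. All 40 are named, and from each other list the gene of smallest p in each direction where none passed; cell type markers are named where they define the type or stood out after their values were seen.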

Additional observations from a re-analysis of the deposited data

Results flagged for a closer look

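Jun was 6.46 in knockout replicate 2, apart from the 6.97 to 7.02 of the other knockouts, and 10.55 in wild-type replicate 3, apart from the 8.77 to 8.84 of the other wild types. Such a gap is expected by chance in about 1 of 20 groups of samples, and these were the 2 found among the 82 groups examined (the 39 mitotic genes, Jun and Cdk6, in each genotype).

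In 3 mitotic genes both knockouts lay above both wild types on the RO arrays and below both on the D and F arrays. The share of all genes with this pattern was not computed, so whether 3 is unusual is not known. The knockout difference on the RO arrays exceeded that on the D and F arrays by 0.38 for Ccnb2, 0.87 for Cdc25c and 0.66 for Kif20a. In the limma interaction fit none of the 3 passed (adjusted p = 0.716 for Cdc25c and Kif20a).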

How the results depend on the processing

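In 21 alternative settings the number of mitotic genes past the knockout threshold remained 0, with a lowest adjusted p of 0.175 (limma). Their median difference ran from -0.077 to 0.12 with 1 array left out. The sign was kept in all 21 by 5 genes, Cdc25b, Pttg1, Espl1, Ndc80 and Racgap1. Quantile normalization turned Bub3 (-0.026) and Kif2c (-0.019). Centring turned Ccnb2 (0.13), Cdc25c (0.13), Aurka (0.074), Aurkb (0.034), Plk1 (0.10), Bub1b (0.049), Cdc20 (0.11), Ube2c (0.00033), Cenpf (0.093), Birc5 (0.11), Incenp (0.094), Kif20a (0.065), Foxm1 (0.037). Leaving out 1 array turned the sign of 21 genes, whose differences then ran from -0.022 to 0.18 for Ccna2, from -0.11 to 0.0499 for Ccnb2, from -0.19 to 0.15 for Cdc25c, from -0.17 to 0.033 for Aurka, from -0.22 to 0.10 for Plk1, from -0.095 to 0.48 for Bub1, from -0.046 to 0.056 for Bub3, from -0.037 to 0.31 for Ttk, from -0.15 to 0.036 for Cdc20, from -0.065 to 0.19 for Cenpa, from -0.072 to 0.24 for Cenpe, from -0.20 to 0.075 for Cenpf, from -0.085 to 0.36 for Spc25, from -0.12 to 0.018 for Incenp, from -0.12 to 0.12 for Kif2c, from -0.22 to 0.042 for Kif20a, from -0.093 to 0.27 for Kif23, from -0.0200 to 0.28 for Prc1, from -0.22 to 0.22 for Ect2, from -0.091 to 0.17 for Mki67, from -0.23 to 0.011 for Foxm1. Centring moves the difference of every gene up by the same amount, so the genes it turned were those less far below 0 than that shift. None of these differences passed the test in any setting run, and the cause of the other turns was not tested.

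Over all genes the number past the threshold was 1, and became 0 among genes above the median gene, 2 with array weights, 32 on the RO arrays alone, 79 on the D and F arrays alone, 0 to 2 with 1 array left out and 4 without wild-type replicates 1 and 3. Cdk6 passed on the D and F arrays alone (-3.09), with knockouts far apart at 10.11 and 6.79 and wild types at 11.50 and 11.58. Limma p-values of such fits of 2 against 2 arrays rest in part on variances shared across genes. Jun passed with array weights (-2.71), on the RO arrays (-2.10), on the D and F arrays (-2.67) and without wild-type replicates 1 and 3 (-1.94); with 1 array left out it ran from -2.68 to -1.97 and passed without wild-type replicate 3. Leaving out 1 array gave 0 to 1 mitotic genes past the threshold between title series, namely Pttg1, whose difference ran from 1.20 to 1.51. The genes lowest on knockout replicate 4 numbered 8 after centring. Leaving out wild-type replicates 1 and 3 together, and the rescalings of the array means and the settings for Pttg1 between series, were chosen after seeing the data. No paired analysis was possible because the labels carry no replicate numbers. Without detection calls, the depth of signal over background is unknown.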

Other observations

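Top2a had a further single-symbol probe set, read at 4.99 to 6.69 on the 8 arrays, with a knockout minus wild type difference of 0.065; it was not the one used. The median Pearson correlation of a gene with the mean of the other mitotic genes, across the 8 arrays, was 0.74 for the 25 genes with a CHR and 0.72 for the 7 measured genes without one.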
